A study of Mus musculus with 6 samples.

Results

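Ketone bodies are made from acetyl-CoA and turned back into it by a short chain of enzymes, and 5 genes of that chain, Bdh1, Bdh2, Oxct1, Acat1 and Aacs, were followed here in mouse dorsal skin. They were taken by name from the 21959 genes of the deposited table, and all 5 were among the 14875 genes that passed the expression filter and were tested. The mice were wildtype male C57BL/6 of 7 weeks, shaved on the back in what the labels give as telogen, the resting phase of hair follicles. Vehicle (dipropylene glycol in water) was applied to the skin of 3 mice and 3% rebamipide to that of 3 others, every day for 7 days. Rebamipide is a drug used for gastric ulcers, and the comparison addresses how it changes gene expression in full-thickness skin. Poly-A RNA of dorsal skin was sequenced, and since the study's methods give 3 mice per group, the 3 libraries of a group are taken as separate mice.

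Acetyl-CoA acetyltransferase 1, the product of Acat1, is a mitochondrial thiolase that joins or splits acetyl units. In ketogenesis, which is a task of the liver above all, further mitochondrial enzymes go on from there to acetoacetate, and beta-hydroxybutyrate dehydrogenase 1 (Bdh1) reduces acetoacetate to beta-hydroxybutyrate. In ketone use, which is known from muscle, heart, brain and other tissues, Bdh1 runs the other way, succinyl-CoA:3-oxoacid CoA transferase (Oxct1) activates acetoacetate in mitochondria, and Acat1 splits the product into acetyl-CoA that enters the TCA cycle. Acetoacetyl-CoA synthetase (Aacs) activates acetoacetate in the cytosol instead, where it can be used for the synthesis of fatty acids and sterols. Bdh2 encodes a cytosolic member of the short-chain dehydrogenase family.

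Bdh1 and Bdh2, the pair of dehydrogenase genes, both had lower CPM in the rebamipide libraries with no overlap between the groups, as did 24% of all genes tested, and neither passed the test (edgeR, adjusted p = 0.109 and 0.0930). Within the vehicle group the 2 genes ran in opposite orders, with Bdh1 falling and Bdh2 rising from the first to the third library. The sequences before their starts are shown as a description only. The RefSeq table used here held promoter windows for 4 of the 5 genes, Bdh1, Bdh2, Oxct1 and Aacs, in build GRCm38.p6, with 2 starts for Bdh1. The 250 bases before each start are printed 5′ to 3′ on the strand of the gene, with matches to the searched motifs in capitals.
Bdh1 first start, chr16:31422047-31422296, strand +: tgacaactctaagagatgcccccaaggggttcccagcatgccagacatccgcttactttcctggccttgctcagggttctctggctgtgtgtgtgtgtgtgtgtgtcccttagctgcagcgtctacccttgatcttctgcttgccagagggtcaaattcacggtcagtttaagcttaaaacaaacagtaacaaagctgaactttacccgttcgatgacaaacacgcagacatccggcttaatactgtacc
Bdh1 second start, chr16:31428503-31428752, strand +: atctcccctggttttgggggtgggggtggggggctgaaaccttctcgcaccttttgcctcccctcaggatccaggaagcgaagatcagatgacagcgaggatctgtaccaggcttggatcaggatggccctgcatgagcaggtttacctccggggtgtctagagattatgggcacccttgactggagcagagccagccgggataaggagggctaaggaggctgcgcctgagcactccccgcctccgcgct
Bdh2, chr3:135280971-135281220, strand +: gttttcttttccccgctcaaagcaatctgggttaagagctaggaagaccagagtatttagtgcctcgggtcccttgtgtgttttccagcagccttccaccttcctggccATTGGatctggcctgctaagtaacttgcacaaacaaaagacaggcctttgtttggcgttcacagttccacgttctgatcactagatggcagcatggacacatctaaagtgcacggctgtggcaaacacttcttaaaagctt
The windows of 300 bases, which run to 50 bases after the start, were searched on both strands for AAGGTCA, the element known for estrogen-related receptors, GGGCGG, the GC box, CCAAT, the CCAAT box, and CACGTG, the E-box. Bdh2 held 1 CCAAT box, which reads ATTGG on the printed strand. The second start of Bdh1 held 1 GC box in the bases after the start, and the first start of Bdh1 held no match. The windows of Oxct1 and Aacs held no match to any of the 4 motifs. Over all 32851 windows, 4.72% held AAGGTCA, 35.7% the GC box, 37.4% the CCAAT box and 7.15% the E-box. These matches describe the letters of the windows alone.

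The libraries differed in depth and in tissue content. Between 38676018 and 39915276 reads were counted per vehicle library and between 32709801 and 34706852 per rebamipide library, and the genes of the mitochondrial genome took 2.59% to 5.36% and 13.3% to 22.0% of them. Counts were therefore scaled with edgeR's TMM factors and are given as CPM, counts relative to the scaled library size. The median log2 fold change of the 14875 genes was -0.17 with TMM, but -0.78 when libraries were scaled by their totals alone. The third rebamipide library stands apart: the keratinocyte genes Krt14 and Krt5 had 0 and 4 counts there, against 6102 to 64371 and 5368 to 77535 counts in the other 5 libraries, so that these defining genes of epidermis were nearly absent from a sample labelled skin. The first and second vehicle libraries go against the label telogen in that 5 genes of growing hair follicles, among them Krt71 and Tchh, summed to 20443 and 11204 CPM, against 230 CPM in the third vehicle library and at most 933 CPM with rebamipide. In bulk tissue, fewer cells of a type and less RNA per cell cannot be told apart.

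Of the 5 genes, Acat1 rose with rebamipide, Bdh1 and Bdh2 were lower in every rebamipide library without passing the test, and Oxct1 and Aacs overlapped between the groups in CPM. With edgeR's quasi-likelihood test and Benjamini-Hochberg adjustment over all genes tested, 1 of the 5 was called higher at an adjusted p-value under 0.05, where 14.1% of all genes tested were called higher. By the same test 0 of the 5 were called lower, where 6.51% of all genes were, and 2 were lower at an unadjusted p-value under 0.05, where 18.8% of all genes were. In either direction this is 1 of the 5, where 20.6% of all genes were called. The thresholds of the study, which use the unadjusted p-value and a log2 fold change beyond 1, were applied here to the edgeR fit. By them 1 of the 5 was higher and 2 were lower, where 14.3% and 14.5% of all genes were. DESeq2 called 2 of the 5 lower, where it called 15.5% of all genes lower, and limma-voom called 0, where it called 6.94%. On normalized CPM, 1 of the 5 lay above in every rebamipide library and 2 lay below, against 24.5% and 24% of all genes tested. The deposited FPKM carry no TMM scaling, and on log2(FPKM + 1) the median log2 fold change of all genes was -0.46. On FPKM, Oxct1 lay below in every rebamipide library as well, at 73.4 to 80.7 against 117 to 118. The share of all genes that lay below on FPKM was not computed.

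**Figure D1:**
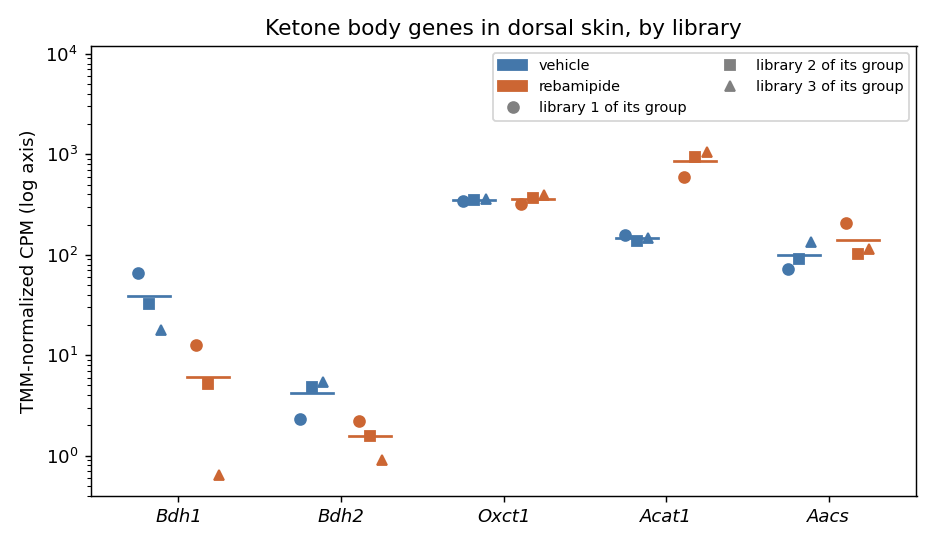
TMM-normalized CPM of the 5 genes (log axis) in the 3 vehicle (blue) and 3 rebamipide (orange) libraries, with circles, squares and triangles for libraries 1, 2 and 3 of a group and bars for the group means. Acat1 separates upward, at 600 to 1053 against 137 to 159 CPM, Bdh1 and Bdh2 separate downward, and Oxct1 and Aacs overlap.

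Acat1 (ENSMUSG00000032047, chromosome 9, 53491822 to 53521682, minus strand, in the deposited table, whose build the submitters' processing notes name as GRCm39) encodes the thiolase at both ends of the pathway. Its level was 159, 137 and 146 CPM in the vehicle libraries and 600, 931 and 1053 CPM in the rebamipide libraries. The groups were far apart, and the spread among the vehicle mice was small. The means were 147 ± 10.8 and 861 ± 234 CPM (SD, n = 3 libraries each), 5.86-fold higher with rebamipide. On the log2 scale, rebamipide minus vehicle, edgeR estimated a difference of 2.55 ± 0.29 (SE, adjusted p = 0.00939), and 96.7% of all genes tested had a lower value. The rise was between 2.39 and 2.76 on the log2 scale when any single library was left out, but smaller, at 1.90 (edgeR, adjusted p = 0.00913), when libraries were scaled by their totals, where the median of all genes was -0.78. Its call was lost without the second vehicle library (adjusted p = 0.0747, edgeR) and without the second rebamipide library (adjusted p = 0.0573, edgeR), where 0 genes and 1 gene of the whole table passed. In fits added after these values were seen, limma-voom called Acat1 without the same libraries (adjusted p = 0.0490 and 0.0476), as did DESeq2.

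Bdh1 (ENSMUSG00000046598, chromosome 16, 31241098 to 31277719, plus strand), the gene of the mitochondrial dehydrogenase that interconverts acetoacetate and beta-hydroxybutyrate, had lower values with rebamipide instead. Its level was 65.7, 32.7 and 17.7 CPM in the vehicle libraries and 12.6, 5.18 and 0.648 CPM in the rebamipide libraries. The lowest vehicle library and the highest rebamipide library lay close together, and the values within each group spread widely. In raw counts the third rebamipide library held 17 reads of Bdh1 and the first vehicle library 3284. edgeR estimated -2.65 ± 1.03 (SE) on the log2 scale, with a 95% interval of -5.14 to -0.17 and an adjusted p = 0.109. DESeq2 called it lower, at -2.68 (adjusted p = 0.0173), as did edgeR with a replicate block, at -3.20 (adjusted p = 0.0455). Limma on both FPKM scales, which carry no TMM factors, called it lower too (adjusted p = 0.0252 and 0.0378), while limma-voom did not (adjusted p = 0.0762). The edgeR value was -3.72 (adjusted p = 0.0642) without the first rebamipide library, -2.03 (adjusted p = 0.255) without the first vehicle library and -2.11 (adjusted p = 0.105) without the third rebamipide library. With that library as the only rebamipide sample it was -5.89 (adjusted p = 0.0472, edgeR), where the lone library was assumed to vary like the vehicle libraries.

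Bdh2 (ENSMUSG00000028167, chromosome 3, 134986982 to 135010187, plus strand) was the gene with the lowest level of the 5 in the vehicle group. It had 2.30, 4.83 and 5.43 CPM in the vehicle libraries and 2.21, 1.56 and 0.915 CPM in the rebamipide libraries, which corresponds to 115 to 254 and 24 to 67 counts. The first library of each group nearly met, and the others were well separated. The edgeR estimate was -1.42 ± 0.51 (SE) on the log2 scale, with a 95% interval of -2.66 to -0.18 and an adjusted p = 0.0930. DESeq2 called it lower, at -1.44 (adjusted p = 0.0307).

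Oxct1 (ENSMUSG00000022186, chromosome 15, 4055865 to 4184826, plus strand) encodes the CoA transferase that commits acetoacetate to use in mitochondria. Its level was 342, 352 and 360 CPM with vehicle, and 322, 364 and 389 CPM with rebamipide. The vehicle values fell inside the range of the rebamipide values, and the means of 351 ± 8.93 and 358 ± 34.2 CPM differed by less than that spread. The estimated log2 difference was 0.03 with a 95% interval of -0.44 to 0.50 (adjusted p = 0.924, edgeR). This result depends on the scaling. Scaled by total counts, Oxct1 was called lower, at -0.60 (edgeR, adjusted p = 0.0469), and on that scale the median of all genes was -0.78, so that Oxct1 lay 0.18 above the median there and 0.20 above it with TMM.

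Aacs (ENSMUSG00000029482, chromosome 5, 125552878 to 125594474, plus strand), the gene of the cytosolic acetoacetate-activating enzyme, had 72.7, 90.5 and 135 CPM in the vehicle libraries and 206, 102 and 115 CPM in the rebamipide libraries. The first rebamipide library was the highest, and the other two lay within the vehicle range. The estimated log2 difference was 0.50 with a 95% interval of -0.39 to 1.39 (edgeR, adjusted p = 0.337). It came to 0.13 when the first rebamipide library was left out, and to -0.056 when libraries were scaled by their totals.

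Levels of different genes were compared with the deposited FPKM, which are counts relative to gene length and to the total of the library. The order of the genes therefore rests on the deposited gene lengths. In each vehicle library the order of the FPKM levels was Oxct1, Acat1, Aacs, Bdh1 and Bdh2, and no neighbours in this order overlapped across the 3 libraries. Oxct1 was at 117 to 118 FPKM and Acat1 at 45.1 to 53.9 FPKM. In each rebamipide library Acat1 was first, at 148 to 212 FPKM, followed by Oxct1 at 73.4 to 80.7 FPKM and Aacs at 19.8 to 49.7 FPKM. Bdh1 and Bdh2 overlapped in the rebamipide libraries, at 0.126 to 3.00 and 0.163 to 0.482 FPKM, and in the third of them Bdh1 was below Bdh2. Of the summed FPKM of the 5 genes, Oxct1 took 54.1% to 57.8% with vehicle and 25.3% to 28.6% with rebamipide, and Acat1 took 21.9% to 24.7% and 52.6% to 67.4%. Bdh1 took 2.57% to 9.89% and 0.0401% to 1.06%.

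**Figure D2:**
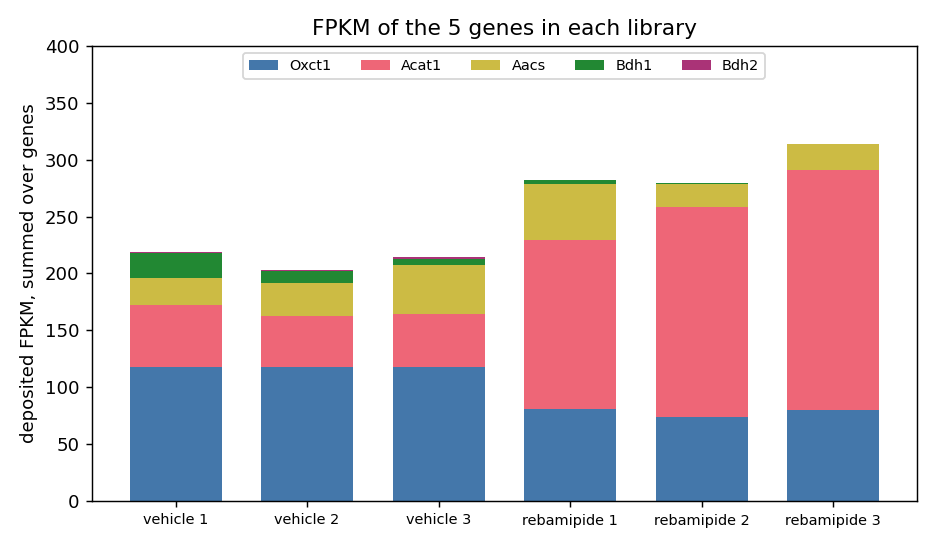
Deposited FPKM of Oxct1, Acat1, Aacs, Bdh1 and Bdh2, stacked for each of the 6 libraries, with bars starting at 0. Oxct1 is the largest part in the vehicle bars, with 54.1% to 57.8%, and Acat1 the largest in the rebamipide bars, with 52.6% to 67.4%.

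Ratios of FPKM within a library do not depend on the scaling between libraries, and 6 of them were computed, chosen after the values were seen. The ratio of Acat1 to Oxct1 was 0.457, 0.384 and 0.398 in the vehicle libraries and 1.84, 2.52 and 2.66 in the rebamipide libraries. The FPKM of Acat1 was thus below that of Oxct1 in every vehicle library and above it in every rebamipide library. Which gene is higher rests on the deposited gene lengths, while the difference between the groups does not. That difference was 2.49 on the log2 scale (two-sided exact permutation test p = 0.1, the smallest that 3 against 3 libraries allow, adjusted over the 6 ratios 0.12). The ratio of Bdh1 to Oxct1 was between 0.0468 and 0.183 with vehicle and between 0.00159 and 0.0372 with rebamipide (difference -3.30, exact permutation p = 0.1, adjusted 0.12), and the difference was -2.02 without the third rebamipide library and -4.30 without the first. Acat1 was also further above Acat2, its cytosolic relative, with ratios of 1.17 to 1.80 against 2.60 to 2.96 (difference 0.92, exact permutation p = 0.1, adjusted 0.12). Aacs to Hmgcs1, both of the cytosolic branch, overlapped at 0.275 to 0.484 and 0.301 to 1.37 (exact permutation p = 0.7, adjusted 0.7).

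The rest of the pathway was described with 17 other genes, of which 13 passed the expression filter. At an adjusted p-value under 0.05, 5 of these were higher and 2 were lower, where 14.1% and 6.51% of all genes tested were, with a median log2 fold change of 0.06 beside -0.17 for all genes tested (edgeR). Slc16a1, Acat3, Acat2 and Bsg were among the higher genes and Slc16a6 among the lower. Without the second vehicle library or the second rebamipide library 0 of the 13 passed with edgeR.

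**Figure D3:**
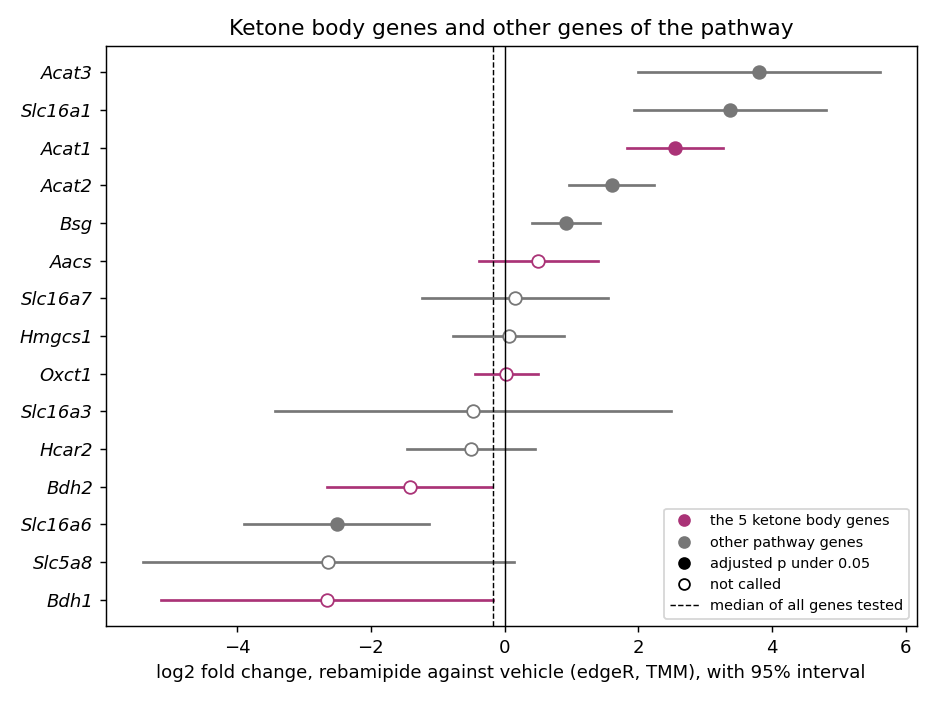
Fitted log2 fold changes (edgeR, TMM) of the 5 genes (purple) and 10 other pathway genes (grey), with 95% intervals, where filled points have an adjusted p-value under 0.05 and the dashed line is the median of all genes tested. Acat1 is the one filled purple point, at 2.55, and the intervals of Oxct1 and Aacs span 0.

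In ketone use, Oxct2a and Oxct2b, which encode close relatives of the Oxct1 product known from testis, were at or near 0. Oxct2a had 53, 6 and 0 counts in the vehicle libraries and 0 in each rebamipide library, where a count of 0 allows up to 3 counts or 0.0864 to 0.0917 CPM before TMM scaling, for counting error only. Oxct2b had 4 counts in the first vehicle library and 0 in the other 5. Both are copies whose reads the counting could have split or dropped. Of 4 hepatocyte marker genes, among them Alb, the summed level was 0.42 to 9.66 CPM in the 6 libraries.

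In the cytosol, the thiolase Acat2 went from 59.7, 61.2 and 84.4 CPM to 156, 225 and 241 CPM (edgeR estimate 1.60 ± 0.26 SE on the log2 scale, adjusted p = 0.0137). Acat3, its close copy next to it on chromosome 17, went from 0.223 to 0.876 CPM to 3.06 to 10.6 CPM, and its reads could be shared with Acat2 and with Tcp1, which the table lists as overlapping it. When the first vehicle library was left out, Acat3 failed the test too (edgeR, adjusted p = 0.0676). Hmgcs1, the cytosolic HMG-CoA synthase, was at 272 to 334 and 179 to 405 CPM with overlap (adjusted p = 0.908, edgeR), while its FPKM lay below in every rebamipide library, at 73.2 to 87.9 and 36.2 to 65.8. Hmgcll1 had at most 18 counts in any library and was not tested.

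Among transport and sensing genes, Slc16a1 rose. It encodes MCT1, a carrier of lactate, pyruvate and ketone bodies, and it went from 36.3, 74.7 and 124 CPM in the vehicle libraries to 431, 1063 and 954 CPM in the rebamipide libraries. The groups did not overlap and the means differed 10.4-fold (edgeR estimate 3.38 ± 0.59 SE on the log2 scale, adjusted p = 0.0162). Bsg, which encodes the chaperone basigin of MCT1, was called higher as well (edgeR estimate 0.91 ± 0.21 SE on the log2 scale, adjusted p = 0.0313), but its FPKM overlapped, and with scaling by total counts alone its log2 fold change was 0.30 (adjusted p = 0.253, edgeR). Its call was also lost without the first vehicle or the third rebamipide library (adjusted p = 0.0622 and 0.108, edgeR). The FPKM ratio of Slc16a1 to Bsg was 0.0606 to 0.166 with vehicle and 0.356 to 0.890 with rebamipide (exact permutation p = 0.1, adjusted 0.12). Slc16a6, which encodes MCT7, a carrier tied to the export of ketone bodies, fell from 50.2, 25.3 and 12.5 CPM to 6.88, 5.06 and 3.47 CPM (edgeR estimate -2.51 ± 0.57 SE on the log2 scale, adjusted p = 0.0308). That call was lost with limma-voom (adjusted p = 0.0623) and without the first vehicle or the third rebamipide library (adjusted p = 0.0615 and 0.0759, edgeR). The table lists Arsg and Amz2 as overlapping Slc16a6 on the other strand, and whether the counting used strand is not given in the sources used here.

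The sodium-coupled carrier gene Slc5a8 had 27.4, 17.1 and 21.6 CPM with vehicle and 5.33, 5.18 and 0.0763 CPM with rebamipide, below in every rebamipide library, and missed the threshold (adjusted p = 0.140, edgeR) although DESeq2 called it lower (adjusted p = 0.0371), as did edgeR without the third rebamipide library (-2.06, adjusted p = 0.0290) and limma on both FPKM scales (adjusted p = 0.00883 and 0.0279). Hcar2, which encodes a receptor for beta-hydroxybutyrate and niacin, overlapped at 13.8 to 36.2 and 15.0 to 22.2 CPM (adjusted p = 0.371, edgeR). Slc16a3 and Slc16a7, the genes of MCT4 and MCT2, overlapped too (adjusted p = 0.795 and 0.853, edgeR). Ffar3 had at most 13 counts in any library and was not tested.

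The KEGG pathway butanoate metabolism, in which the deposited table places Acat1, Oxct1, Aacs and Bdh1, holds 27 genes, of which 20 were tested. Of these 12 were higher and 0 were lower (edgeR), where 14.1% and 6.51% of all genes tested were, with a median log2 fold change of 1.74 beside -0.17 for all genes tested. The higher genes included the beta-oxidation genes Hadha, Hadh, Echs1, Acads and Ehhadh, with log2 fold changes of 3.26, 3.51, 3.29, 3.78 and 4.37, each above that of Acat1. Aldh5a1, whose product oxidizes succinate semialdehyde, had a log2 fold change of 1.89.

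For each of the 5 genes, the 3 other genes with at least 10 CPM on average and the most similar pattern over the 6 libraries were found by Pearson's r of log2 CPM, as a description. For Acat1 these were Foxred1, which encodes an assembly factor of respiratory complex I, Acad10, of the acyl-CoA dehydrogenase family, and Eral1, which encodes a mitochondrial ribosome assembly factor, with log2 fold changes of 2.92, 3.27 and 1.67. For Bdh1 they were Ccna2, the cyclin A2 gene, St14, the gene of the epithelial protease matriptase, and the transcription factor gene Tfap2b. St14 was at 267, 109 and 41.4 CPM in the vehicle libraries and 30.0, 7.83 and 0.687 CPM in the rebamipide libraries, the same order of libraries as Bdh1. For Bdh2 they included Abca9, of the ABC transporter family, and Gng2, which encodes a G protein gamma subunit. For Oxct1 and Aacs they were Rrm2b, Pnrc2 and Cblb, and Bod1, Pip5k1c and Pth1r.

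Marker lists of cell types were set beside Acat1 and Bdh1, and not all of them followed these genes by library. From the first to the third rebamipide library the adipocyte and endothelial sums rose, as Acat1 did. The brown adipocyte sum was highest in the second, and both muscle sums fell. The counts of called genes below stand beside 14.1% of all genes tested that edgeR called higher. Without the second vehicle or the second rebamipide library, 0 genes and 1 gene were called higher in all. Of 7 brown adipocyte genes 5 were called higher, their summed level was 203 to 354 CPM with vehicle and 4833 to 12673 CPM with rebamipide, and Ucp1 was at 0 counts in each vehicle library. Elovl3 of the same list was below in every rebamipide library, at 33.3 to 83.1 CPM against 129 to 238 CPM, and was not called (adjusted p = 0.0575, edgeR). Of 8 adipocyte genes 5 were called higher, with 1562 to 4599 and 11718 to 20814 CPM, while the remaining 3, Cfd, Lep and Retn, overlapped. Of 5 endothelial genes 3 were called higher, with sums of 203 to 471 and 968 to 1408 CPM. Of 5 slow muscle genes 3 were called higher, with 1.90 to 12.99 and 5.87 to 223 CPM, which overlapped, as did the 7 fast skeletal muscle genes, at 5044 to 25042 and 257 to 31942 CPM. The part of these lists in the level of Acat1 was not tested.

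**Figure D4:**
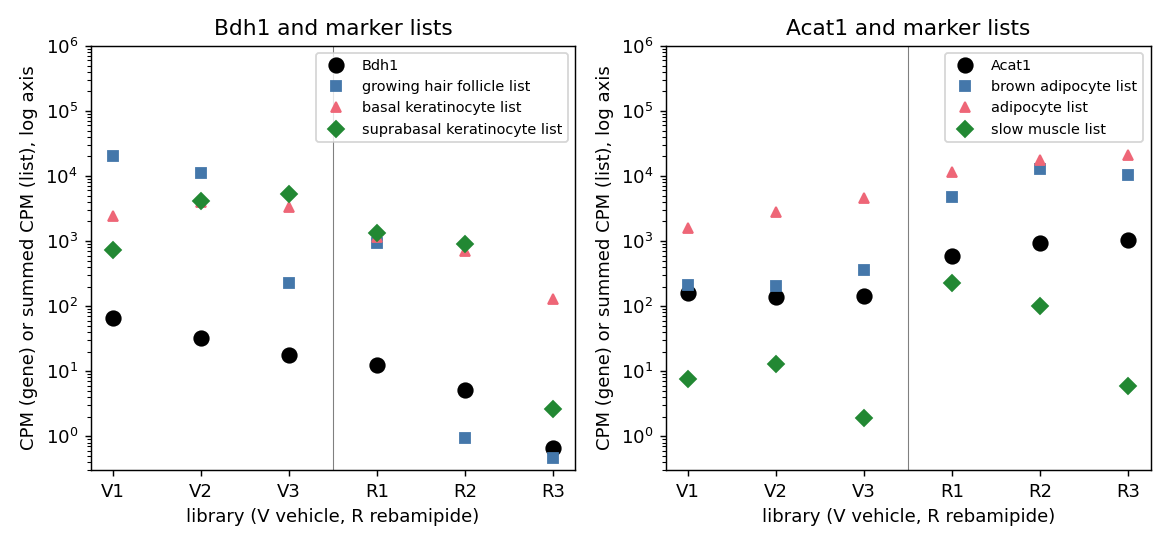
Left, CPM of Bdh1 and summed CPM of the growing hair follicle, basal keratinocyte and suprabasal keratinocyte lists, and right, CPM of Acat1 and summed CPM of the brown adipocyte, adipocyte and slow muscle lists, by library on a log axis. Bdh1 is lowest in the third rebamipide library, at 0.648 CPM, where the epidermal lists are lowest too, and Acat1 is highest there, at 1053 CPM.

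Bdh1 and the summed epidermal and follicular lists all had their lowest values in the third rebamipide library, while in the first vehicle library Bdh1 and the follicular list were highest and both epidermal lists were the lowest of the vehicle group. Of the growing hair follicle list 5 of 6 genes were measured, and beside the sums of the vehicle libraries they reached 933, 0.935 and 0.458 CPM in the rebamipide libraries. The 6 basal keratinocyte genes summed to 2452 to 3977 CPM and to 131 to 1141 CPM, with 2 of the 6 at 0 counts in the third rebamipide library, where Itga6 alone held 129 of the 131 CPM, and the 6 suprabasal genes to 722 to 5336 CPM and to 2.59 to 1333 CPM. None of the genes of these 3 lists was called by edgeR, like Bdh1 itself, where 20.6% of all genes tested were called in either direction. The 6 fibroblast genes summed to 11996 to 17726 CPM with vehicle and to 15104, 3502 and 1849 CPM with rebamipide, and Bdh2 was lowest in the same libraries. The part of these cell types in the levels of Bdh1 and Bdh2 was not tested.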

How the data were processed

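RNA-seq libraries of dorsal skin from 3 vehicle-treated and 3 rebamipide-treated mice were analysed. Unnormalized counts and FPKM for each gene were deposited by the authors, and the deposited FPKM equal the counts divided by gene length and library total. The submitters' processing notes name fastp 0.22.0, HISAT2 2.1.0, HTSeq 0.9.1 and GRCm39, without settings. All 12 value columns were mapped to samples by name, and replicates of a group differed by more than counting error (chi-square over its degrees of freedom 83.1 to 742.3).

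The comparison used edgeR 4.0.16 under R 4.3.3 (filterByExpr, TMM, quasi-likelihood test, Benjamini-Hochberg adjustment over 14875 genes). The standard error is the log2 fold change divided by the square root of its F statistic, and intervals are 95%. The study's methods name DESeq2, and its thresholds were p under 0.05, unadjusted, with log2 fold changes beyond 1 in size. DESeq2 1.42.0, limma-voom and limma 3.58.1 on log2(FPKM + 1) were alternatives, with RLE or total-count scaling, other filters, a replicate block and left-out libraries. The tests were also run on simulated counts with 200 changed genes and the same spread for every gene. The simulation held no difference in tissue content between libraries, unlike these data.

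Named genes were the 5 genes, the pathway lists including butanoate metabolism, the 3 most similar genes of each by Pearson's r of log2 CPM (prior count 1), and marker genes beside a result. The 5 genes and all lists were chosen with earlier results of these data known. Some genes of these lists are counted but not reported by name here. Ratios and leave-one-out fits with DESeq2 and limma-voom were added after the values were seen. No group had over 3 libraries, so outliers were not tested.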

Additional observations from a re-analysis of the deposited data

How the results depend on the processing

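With edgeR's main settings the adjusted calls were 1 higher and 0 lower of the 5 genes, 5 higher and 2 lower of the other pathway genes, and 2093 higher and 968 lower of all genes. DESeq2 called 2 of the 5 lower, Bdh1 (-2.68) and Bdh2 (-1.44), and 2552 genes lower. Limma-voom called 1 pathway gene lower. With total counts alone 2 of the 5 were lower, Bdh2 (-1.98) and Oxct1 (-0.60, reversed), Aacs was -0.056 (reversed), and 1257 genes were higher and 3744 lower. At least 10 counts in every sample gave 1523 genes lower and Oxct1 at -0.085 (reversed). Limma on log2(FPKM + 1) called 3 of the 5 lower, Bdh1 (-2.51), Bdh2 (-0.75) and Oxct1 (-0.59), with Aacs at -0.13 and 4809 genes lower. With log2(FPKM + 0.1) these were 3, -3.57, -1.70, -0.60 and -0.14, with 1391 genes higher and 4777 lower. Both FPKM scales carry no TMM factors, and the median of all genes moved with them to -0.46 and -0.72. The third rebamipide library alone gave Bdh1 at -5.89 (1 of the 5 lower), with 1217 genes higher and 1049 lower. The study's thresholds, applied to the edgeR fit, called 2 of the 5 lower, Bdh1 (-2.65) and Bdh2 (-1.42), and 2161 genes lower.

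Same-numbered libraries deviated from their group means with correlations of -0.002, -0.04 and 0.01, and libraries of different numbers with -0.319 to 0.385. With 3 libraries a group these values cannot settle whether the replicate numbers pair the libraries. The replicate block called 1 of the 5 lower, Bdh1 (-3.20), and 1 pathway gene lower, with 1432 genes higher and 855 lower in all.

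With edgeR and each library left out in turn, 0 to 1 of the 5 were higher and 0 lower, 0 to 5 pathway genes were higher and 0 to 2 lower, and 0 to 2810 genes were higher and 0 to 1971 lower in all. The log2 fold changes were 2.39 to 2.76 for Acat1, -0.028 to 0.10 for Oxct1 (reversed without the first vehicle or the third rebamipide library), -3.72 to -2.03 for Bdh1, -1.75 to -1.14 for Bdh2 and 0.13 to 0.81 for Aacs. Acat1 was called in 14 of 16 refits under other settings, and it was higher in all 16. Of the ratios, Aacs to Hmgcs1 reversed (-0.18 to 0.91) and the other 5 kept their direction. DESeq2 without 1 library at a time called Bdh1 lower except without the first vehicle or the second rebamipide library, and Bdh2 lower only without the first vehicle or the first rebamipide library. The causes were not tested. Precision is limited by 3 mice a group, and depth adds to this for Bdh1, at 17 counts in its lowest library, for Bdh2, at 24 to 254 counts, and for genes near 0.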
